A study of Mus musculus with 16 samples.

Results

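B cells made up 536 of the 163343 cells that were sequenced from 16 mouse melanomas, or 0.328% of all cells. They were taken as the cells to which the deposited annotation gives the class name B cells, and they ranked 13th in size of 15 classes. The tumors grew under the skin of mice from B78 cells, an amelanotic melanoma line, some of which had been given a truncating mutation in the mitochondrial gene Mt-Nd5 by base editing. The study asked how such mutations in the cancer cells change the cells around them, and each tumor was dissociated, sorted for live cells and profiled as its own single-cell RNA sequencing library.

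All tumors came from male C57/BL6 mice aged 8 to 11 weeks. The mutant groups, of 3 tumors each, were compared with 7 WT tumors, which were grown from cells without the mutation. The group mt.12436 80% carried the mutation at position 12436 in about 80% of the mitochondrial genomes of the implanted cells, mt.12436 60% carried the same mutation in about 60%, and mt.11944 60% carried a mutation at position 11944 of the same genome in about 60%. The mutant cells of a group came from 1 edited isogenic population, so the spread between tumors of a group is not a spread between separately edited lines. The edit was in the implanted cells, and the B cells belonged to the host. The deposited table also assigns each tumor to a batch, which it does not describe further. The first batch held mt.11944 60% and WT tumors 1 to 3, the second held mt.12436 60% and WT tumors 4, 5 and 7, and the third, which bears the name of its mutant group, held mt.12436 80% and WT tumor 6.

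B cells are the lymphocytes that recognise antigen through a membrane-bound antibody and that mature into antibody-secreting plasma cells. They arise in the bone marrow, circulate through spleen and lymph nodes, and in tumors are found both scattered and in lymphoid aggregates, where they can present antigen to T cells. CD79A and MS4A1 (CD20), which signal from the B cell receptor and span the B cell membrane, are their usual markers.

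The label could be checked only in part, since the deposited table holds 1 line for each cell and no gene expression, so that Cd79a and Ms4a1 were not examined here. All 536 cells lay in 1 of 39 clusters, number 34, and no cell of another class lay in it. The paper describes naming classes by cluster, so this follows from the naming and does not check the label. No B cell was called aneuploid, a call made to find cancer cells from their chromosome copy number, and 0 of 536 cells allows a share of up to 0.56%, taking 3 cells as the limit for a count of 0. An epithelial score above 0, a mark of the cancer cells, was found in 113 B cells (21.1%), against 81.7% of cancer cells. The 4 other lymphocyte classes of the table, CD4 T, CD8 T, T and natural killer (NK) cells, had such a score in 13.5% to 16.9% of their cells.

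The tumors held 6371 to 13448 cells and 5 to 78 B cells each, so that every value per tumor rests on few B cells. Intervals below are exact 95% Clopper-Pearson intervals and cover counting error only. Some cell barcodes, 3278 in all, occurred in more than 1 library. Among B cells 21 (3.92%) had such a barcode, against 4.04% of all cells, and none was shared between 2 B cells.

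B cells as a share of all cells of a tumor did not pass the adjusted test in any comparison. In the mt.12436 80% tumors they were 17 of 10629 cells (0.160%, interval 0.0932% to 0.256%), 22 of 10362 (0.212%) and 5 of 10571 (0.0473%). In the mt.12436 60% tumors they were 58 of 10478 cells (0.554%, interval 0.421% to 0.715%), 45 of 12074 (0.373%) and 53 of 10663 (0.497%). In the mt.11944 60% tumors they were 36 of 12885 cells (0.279%), 15 of 13448 (0.112%) and 11 of 9262 (0.119%). WT tumors lay between 0.127% and 0.700%, with a median of 0.329%, a range that held 6 of the 9 mutant values, with the other 3 below it.

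**Figure D1:**
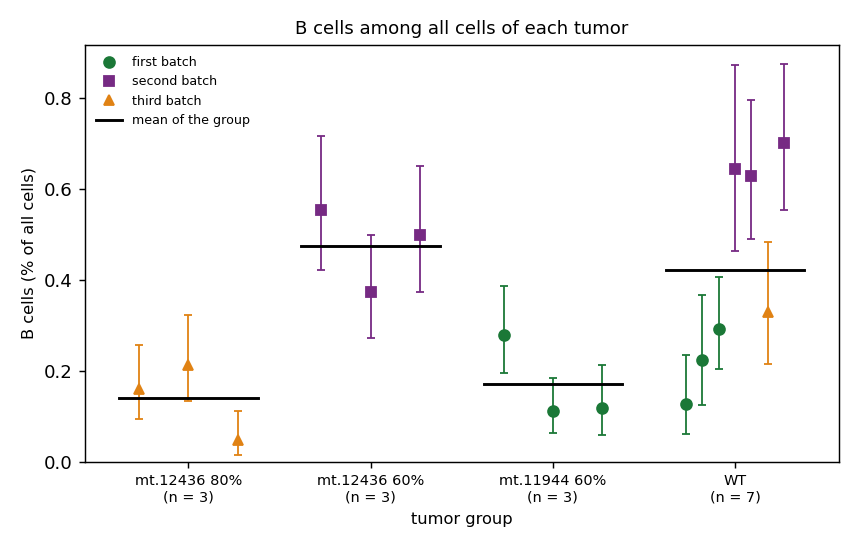
B cells in percent of all cells (vertical axis) in each of 16 tumors, by tumor group, with points for tumors coloured by batch, error bars for exact 95% Clopper-Pearson intervals and black lines for group means. The 6 tumors of the second batch, at 0.373% to 0.700%, lie above the 10 tumors of the other batches, at 0.0473% to 0.329%.

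The B cell share of all cells went with the batch. All 6 tumors of the second batch (0.373% to 0.700%) lay above all 10 others (0.0473% to 0.329%), and B cells were the only 1 of 15 classes (6.67%) whose share was higher in the second batch without overlap. That batch gave 344 of the 536 B cells (64.2%) and 37.8% of all cells. The WT tumors alone showed the same split, with 0.657% ± 0.0383 in the second batch (SD, n = 3), 0.214% ± 0.0828 in the first (n = 3) and 0.329% in the single WT tumor of the third. What the batches differed in was not given, and its part in the shares was not tested.

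Over all tumors, batches ignored, the values of the groups overlapped. The mean was 0.140% ± 0.0843 in 80% tumors (SD, n = 3) and 0.420% ± 0.231 in WT tumors (n = 7), a difference of -0.281 percentage points with a 95% interval of -0.596 to 0.0318 (exact two-sided permutation test over tumors, p = 0.0833, adjusted over 15 classes 0.208). In 60% tumors of both mutations the mean was 0.322% ± 0.187 (n = 6), a difference from WT of -0.0983 points with an interval of -0.360 to 0.164 (exact p = 0.408, adjusted 0.612). No class, B cells included, passed the adjusted test as lower in either comparison (0% of 15), and 1 of 15 (6.67%), which was not B cells, was lower at an unadjusted p under 0.05 in each. Within batches the difference was -0.129 points for all mutant tumors against WT (exact p = 0.0131, adjusted 0.0984) and -0.113 points for 60% tumors (exact p = 0.05, adjusted 0.125), closer to the threshold than with batches ignored but not past it after adjustment. The 80% tumors had 0.182 points less than the 60% tumors, with values that overlapped (exact p = 0.179), and these groups shared no batch. The mt.12436 60% tumors lay above the mt.11944 60% tumors without overlap, as did 5 of 15 classes (33.3%). These groups came from different batches too, so that this direct comparison cannot tell mutation and batch apart. Against WT tumors of its own batch, mt.12436 60% differed by -0.183 points and mt.11944 60% by -0.0441 points. The first effect minus the second was -0.139 points (exact permutation within batches, p = 0.27), a sign opposite to that of the direct comparison. With edgeR's quasi-likelihood test on the cell counts B cells did not pass either (adjusted p of 0.124 for 80% and 0.553 for 60% tumors against WT).

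The same B cells, counted among lymphocytes only, were less frequent in mutant tumors. Lymphocytes here are the sum of B, CD4 T, CD8 T, T and NK cells, 10282 cells in all. The mt.12436 80% tumors had 7.39%, 5.64% and 1.51% B cells among 230, 390 and 332 lymphocytes. The mt.12436 60% tumors had 4.71%, 3.55% and 4.24% among 1231, 1268 and 1250 lymphocytes. The mt.11944 60% tumors had 2.98%, 2.97% and 4.53% among 1209, 505 and 243 lymphocytes. The WT tumors, from 1 to 7, had 4.85%, 8.33%, 7.95%, 8.95%, 5.66%, 6.52% and 10.8% among 180 to 1220 lymphocytes.

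The 6 tumors with 60% mutant genomes lay below all 7 WT tumors, though only just: the highest of them (4.71%, interval 3.60% to 6.05%) stood next to WT tumor 1 (4.85%, interval 2.35% to 8.75%, 10 B cells). Of the 80% tumors, 1 lay below all WT tumors and the other two lay within their range. B cells were the smallest of the 5 lymphocyte classes in all 9 mutant tumors and in WT tumors 1, 3, 4, 5 and 6, and in WT tumors 2 and 7 they ranked 4th.

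**Figure D2:**
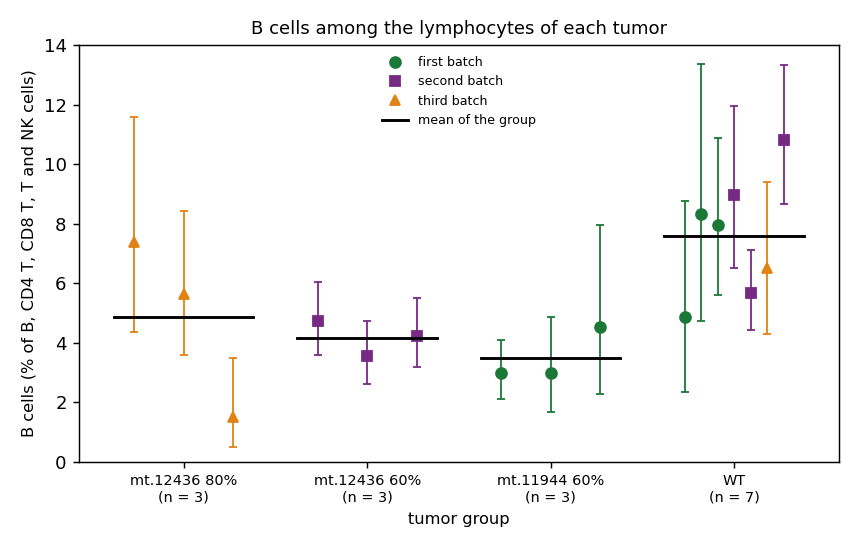
B cells in percent of B, CD4 T, CD8 T, T and NK cells (vertical axis) in each tumor, by tumor group, with points coloured by batch, error bars for exact 95% Clopper-Pearson intervals and black lines for group means. The 60% tumors reach at most 4.71% and the WT tumors start at 4.85%, while the 80% tumors spread between 1.51% and 7.39%.

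The 60% tumors averaged 3.83% ± 0.771 B cells among lymphocytes (SD, n = 6), against 7.58% ± 2.06 in WT tumors (n = 7). The difference was -3.75 percentage points with a 95% interval of -5.78 to -1.80 (exact two-sided permutation test, p = 0.00233, adjusted over the 5 lymphocyte classes 0.0117). All mutant tumors together averaged 4.17% ± 1.71 (n = 9), 3.42 points below WT with an interval of -5.44 to -1.39 (exact p = 0.00297, adjusted 0.0149), and 7 of the 9 lay below every WT tumor. In both comparisons B cells were the 1 lymphocyte class of 5 (20%) that passed the test in either direction, and against the 60% tumors they were also the 1 class of 5 (20%) with no overlap. With a count model in place of the permutation, edgeR's quasi-likelihood test scaled to total lymphocytes gave a log2 fold change of -1.01 for 60% against WT (adjusted p = 0.000515) and -0.92 for all mutant tumors against WT (adjusted p = 0.00720).

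The difference was seen in both batches that held 60% tumors. In the second batch mt.12436 60% tumors had 4.17% ± 0.585 and WT tumors 8.48% ± 2.61 (SD, n = 3 each), and in the first batch mt.11944 60% tumors had 3.49% ± 0.896 and WT tumors 7.05% ± 1.91 (n = 3 each). In neither batch did the groups overlap, and 0.10 is the smallest exact p that 3 against 3 tumors can give. A permutation within batches gave -3.93 points for 60% against WT (exact p = 0.005, adjusted 0.025) and -3.48 points for all mutant tumors (exact p = 0.00813, adjusted 0.0406). The value for all mutant tumors includes the third batch, where 80% tumors at 1.51% to 7.39% stood beside a single WT tumor (6.52%). The effect of mt.12436 60% minus that of mt.11944 60%, each against WT tumors of its own batch, was -0.753 points (exact p = 0.78), so the 2 mutations were not shown to differ. The 80% tumors averaged 4.85% ± 3.02 (n = 3), 2.74 points below WT with an interval of -6.37 to 0.892 (exact p = 0.133), and 1.02 points above the 60% tumors with an interval of -2.04 to 3.54 (exact p = 0.464). A lower share in the 80% tumors as large as that of the 60% tumors thus lay within the interval, as did no difference.

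A share of lymphocytes can be low because B cells are few or because other lymphocytes are many. The 4 other classes together were 7.97% ± 3.89 of all cells in 60% tumors (SD, n = 6) and 5.12% ± 2.84 in WT tumors (n = 7), a difference that did not pass the test (exact p = 0.155, within batches 0.055). In 80% tumors the 4 classes were 2.88% ± 0.795 of all cells (n = 3), lower than in WT tumors rather than higher. This difference did not pass either (exact p = 0.25). In the second batch other lymphocytes were 10.8% ± 0.624 of all cells in mt.12436 60% tumors and 7.60% ± 2.52 in WT tumors (n = 3 each, 1.43-fold, exact p = 0.2). B cells there were 0.474% ± 0.0925 in mt.12436 60% tumors, at 0.373% to 0.554%, and 0.657% ± 0.0383 in WT tumors, at 0.628% to 0.700% (n = 3 each, 0.722-fold, exact p = 0.10). In the first batch other lymphocytes were 5.08% ± 3.53 of all cells in mt.11944 60% tumors and 2.77% ± 0.526 in WT tumors (n = 3 each, 1.83-fold, exact p = 0.2), and B cells were 0.170% ± 0.0949 of all cells in mt.11944 60% tumors and 0.214% ± 0.0828 in WT tumors (n = 3 each, 0.794-fold, exact p = 0.5). How much of the lower lymphocyte share came from either term was not tested.

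The spread of the lymphocyte share between 60% tumors was about that of counting alone. Its SD was 1.02 times the SD that the cell numbers give by chance, against 1.47 times in WT tumors and 2.50 times in 80% tumors. The share of all cells varied far more, with 3.53 times the counting SD in 60% tumors and 3.24 times in WT tumors.

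The lower share in mutant tumors was wider, in percentage points, among lymphocytes with few detected genes than among deeper ones, a contrast between depths that was not itself tested. The split at 1000 genes was 1 of the planned settings for the deeper cells and was extended to the shallower ones after seeing the data. Per tumor it left 2 to 46 B cells with under 1000 genes and 1 to 44 with at least 1000, so these shares rest on very few cells. Among lymphocytes with under 1000 genes, B cells averaged 4.26% ± 2.90 in mutant tumors (SD, n = 9) and 11.9% ± 5.79 in WT tumors (n = 7), a difference of -7.59 points (exact p = 0.00472, adjusted over the 5 lymphocyte classes 0.0236). For the 60% tumors alone this difference was -8.00 points (exact p = 0.0157, adjusted 0.0787). Among lymphocytes with at least 1000 genes, B cells averaged 4.46% ± 2.03 in mutant tumors and 6.01% ± 2.18 in WT tumors, and the difference of -1.55 points no longer passed (exact p = 0.163, adjusted 0.510). For the 60% tumors it was -1.79 points (exact p = 0.0967, adjusted 0.484). The call of a lower lymphocyte share thus held over all deposited cells and over cells with at least 600 genes (adjusted p = 0.0328 for mutant, 0.0204 for 60% tumors) and ended at 1000.

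**Figure D3:**
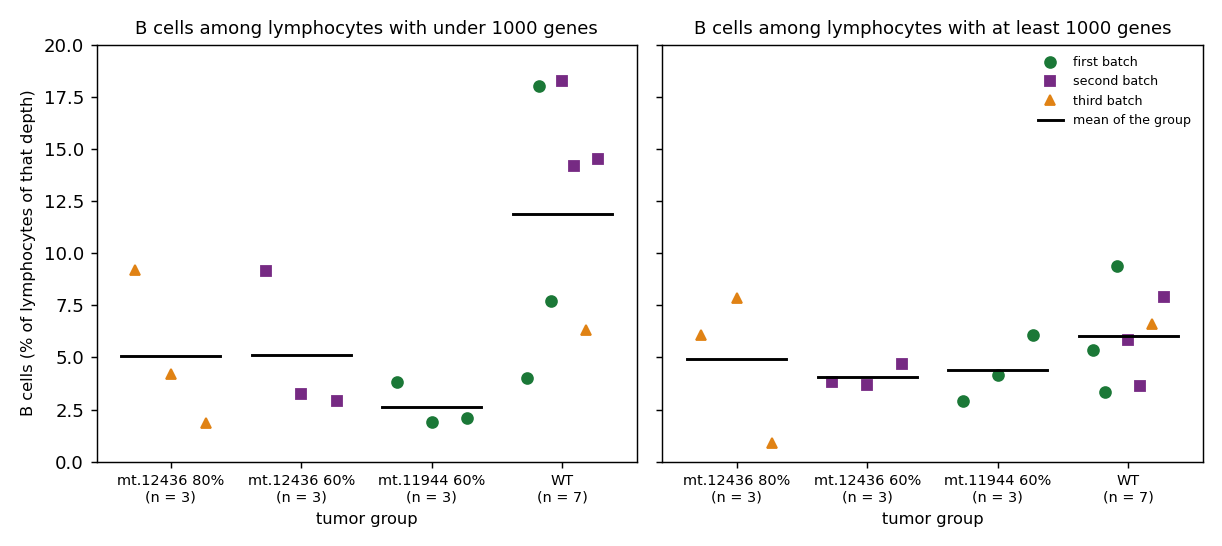
B cells in percent of the lymphocytes with under 1000 genes (left) and with at least 1000 genes (right) in each tumor, by tumor group, with points coloured by batch and black lines for group means. On the left the WT mean is 11.9%, and on the right the WT mean is 6.01% and the groups overlap.

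The depth of the B cells themselves varied between tumors too. The share of B cells with at least 1000 genes was 66.7% to 91.7% in 60% tumors, 20% to 54.5% in 80% tumors and 17.1% to 73.1% in WT tumors. The same share of the other lymphocytes was 47.1% to 93.5% in 60% tumors, 34.6% to 58.2% in 80% tumors and 14.3% to 82.6% in WT tumors. The B cells passed 1000 genes less often than the other lymphocytes of the same tumor in mt.12436 80% tumors 1 and 3, mt.12436 60% tumor 1, mt.11944 60% tumor 1 and WT tumors 2, 4, 5 and 7, and more often in the other tumors. Whether the depth of the cells has a part in the lower B cell share was not tested beyond these values.

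A B cell held a median of 1955.5 UMIs (unique molecular identifiers, each a counted transcript) from a median of 1116.5 genes. Per tumor the median UMIs were 1873, 1632 and 1432 in mt.12436 80%, 2006, 2497 and 3004 in mt.12436 60%, and 5864, 1963 and 2354 in mt.11944 60%. In WT tumors they were 1227 at the lowest, 1756 in the middle and 3333.5 at the highest. All 6 tumors with 60% mutant genomes lay above the WT median, and 1 of them, mt.11944 60% tumor 1, stood far above every other tumor. Its other lymphocytes had the highest median UMIs of any tumor too. They were 2866 in CD4 T, 5093.5 in CD8 T, 4215.5 in T and 4375.5 in NK cells. The next highest tumors had 1812, 4025, 3173.5 and 3004 in these classes.

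That tumor, mt.11944 60% tumor 1, held 23 of the 37 B cells with over 5000 UMIs and both of the 2 with over 10000. Its B cells had a median doublet score of 0.0649, where the score runs from 0 to 1 and rises with the chance that 2 cells shared a droplet, and the next highest median of any tumor was 0.00525. It held 14 of the 57 B cells (10.6% of all B cells) with a score over 0.1. Over that value lay 1.69% to 5.03% of the cells of the other lymphocyte classes. No cell of the table carried a doublet call, and whether called doublets had been removed is not stated in the sources used here. Without cells that scored over 0.1, a setting added after seeing the data, the lymphocyte share was 3.41% ± 0.947 in 60% tumors and 7.39% ± 2.08 in WT tumors (exact p = 0.00175, adjusted 0.00874).

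The median UMIs averaged 2948 ± 1478 in 60% tumors (SD, n = 6) and 1923 ± 787 in WT tumors (n = 7), a difference of 1025 with an interval of -213 to 2496 (exact p = 0.116). The median number of genes averaged 1495 ± 447 in 60% tumors and 1095 ± 343 in WT tumors (exact p = 0.0892). Without mt.11944 60% tumor 1 the difference was 442 UMIs. Within batches both had an unadjusted p under 0.05, with 1260 UMIs (exact p = 0.04) and 511 genes (exact p = 0.02) more in the 60% tumors. Neither passed after adjustment over 132 tests, which covered 11 measures in 12 classes (adjusted p = 0.953 for both, and 0.594 and 0.440 within batches).

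**Figure D4:**
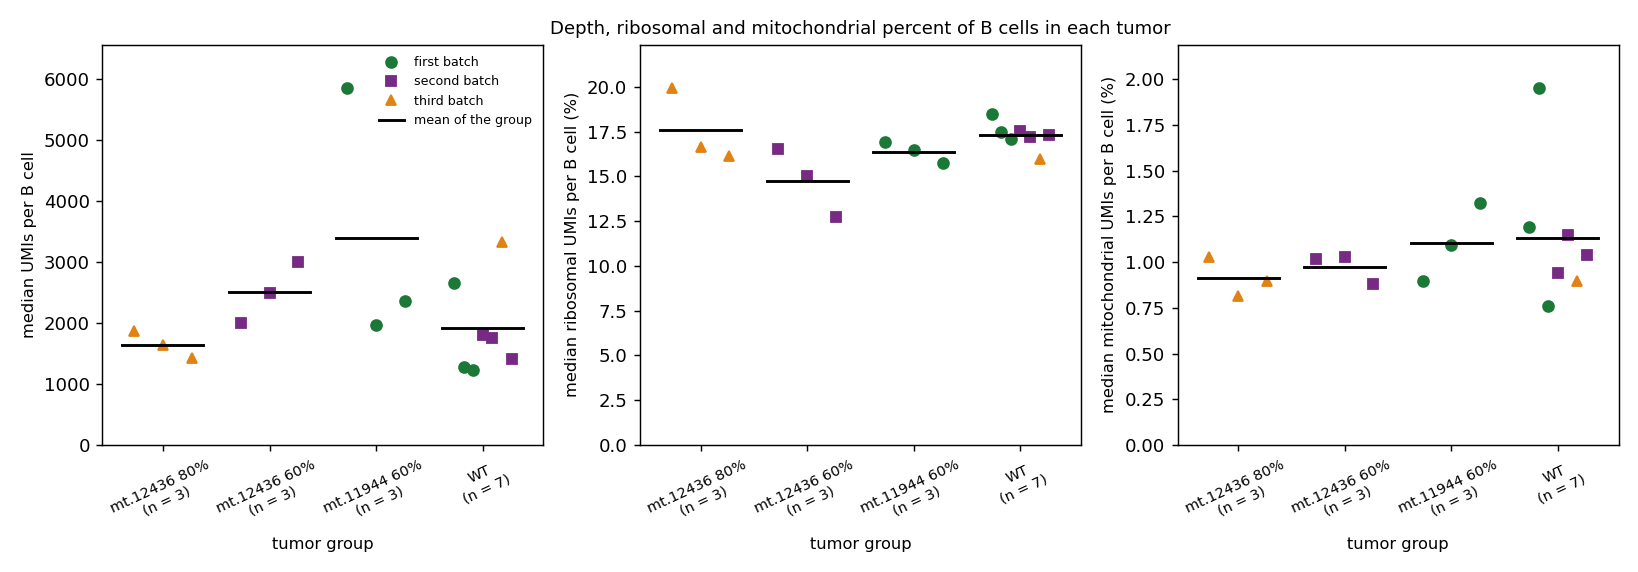
Median UMIs (left), ribosomal percent (middle) and mitochondrial percent (right) of the B cells of each tumor, by tumor group, with points coloured by batch and black lines for group means. B cells of mt.11944 60% tumor 1 reach 5864 UMIs, the ribosomal percent of 60% tumors lies at 12.7% to 16.9% and that of WT tumors at 15.98% to 18.5%, and WT tumor 2 has the highest mitochondrial percent (1.96%).

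Ribosomal transcripts made up a median of 16.4% of the UMIs of a B cell. Per tumor the median was 19.97%, 16.7% and 16.1% in mt.12436 80%, 16.6%, 15.02% and 12.7% in mt.12436 60%, and 16.9%, 16.5% and 15.8% in mt.11944 60%. In WT tumors it was 15.98% at the lowest, 17.3% in the middle and 18.5% at the highest. All 6 tumors with 60% mutant genomes thus lay below the WT median, and 3 of them below every WT tumor.

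The ribosomal percent averaged 15.6% ± 1.55 in 60% tumors (SD, n = 6) and 17.3% ± 0.737 in WT tumors (n = 7), a difference of -1.72 points with an interval of -3.19 to -0.414. Its unadjusted p was 0.00874 (exact permutation test), and within batches the difference was -1.94 points (exact p = 0.005). With batches ignored it was the only 1 of the 132 values (0.758%) that was lower in 60% tumors at an unadjusted p under 0.05. Within batches 7 of 132 (5.3%) were, so the lower ribosomal percent was not particular to B cells there. It was also lower within batches in CD4 T cells (-2.14 points, exact p = 0.005) and CD8 T cells (-1.41 points, exact p = 0.045). In NK cells (-1.06 points, exact p = 0.15) and T cells (-0.907 points, exact p = 0.4) the unadjusted p was not under 0.05. The B cell difference did not pass adjustment (adjusted p = 0.953, within batches 0.330), and 0 of 132 values did (0%). The 80% tumors averaged 17.6% ± 2.08 (n = 3), 0.289 points above WT (exact p = 0.767), a sign that turned with means over cells, with deeper cells, and without mt.12436 80% tumor 1.

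In the second batch the tumors whose B cells had more UMIs had a lower ribosomal percent (r = -0.959 over 6 tumors, exact p = 0.00556). Over all 16 tumors no such relation was found (Pearson r = -0.217, permutation p = 0.342, adjusted over 3 relations 0.513, Spearman rho = -0.406, p = 0.121). Without the 2 tumors farthest from the median UMIs r was -0.478, and in the first batch it was -0.0463. The third batch held 4 tumors, too few for a value. The part of depth in the lower ribosomal percent was not tested.

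Mitochondrial transcripts made up a median of 0.981% of the UMIs of a B cell. Mutant tumors averaged 0.997% ± 0.151 (SD, n = 9) and WT tumors 1.13% ± 0.392 (n = 7), a difference of -0.136 points with an interval of -0.440 to 0.127 (exact p = 0.413, adjusted 0.979). WT tumor 2 had 1.96% and the next highest tumor, mt.11944 60% tumor 3, had 1.32%. The percent of UMIs from genes that respond to tissue dissociation was 2.73% ± 0.255 in mutant tumors and 2.83% ± 0.295 in WT tumors, with an interval of the difference of -0.395 to 0.199 (exact p = 0.475). Differences of these sizes were within the spread between tumors.

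Most B cells were called G1, the phase before DNA is copied, as opposed to S, in which it is copied, and G2M, which ends in division. The calls, which the authors made from scores over S and G2M phase genes, were G1 for 338 B cells (63.1%), S for 114 (21.3%) and G2M for 84 (15.7%). The highest G2M score of any B cell was 0.137, a value that 31.3% of CD8 T cells exceeded, and 1 B cell (0.187%) had an S score over 0.2, against 26.9% of CD8 T cells. In the other lymphocyte classes such scores were rare too, with 2.29% of CD4 T, 1.74% of T and 1.92% of NK cells above that G2M score and 1.86%, 3.92% and 3.05% of them above that S score. Since the calls compare scores near 0, they are not read here as dividing cells.

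The percent of B cells called S was 11.8%, 13.6% and 20% in mt.12436 80% tumors, 25.9%, 13.3% and 37.7% in mt.12436 60% tumors, and 25%, 6.67% and 18.2% in mt.11944 60% tumors. It was 10% to 24.4% in WT tumors. The percent called G2M was 5.88%, 13.6% and 20% in mt.12436 80% tumors, 17.2%, 40% and 3.77% in mt.12436 60% tumors, and 13.9%, 6.67% and 0% in mt.11944 60% tumors, where 0 of 11 cells allows up to 27.3% by the limit of 3 cells and up to 28.5% by the exact interval. It was 0% to 22.0% in WT tumors. The widest range was within mt.12436 60%, whose tumor 2 had the most G2M calls (18 of 45, interval 25.7% to 55.7%) and whose tumor 3 had the most S calls (20 of 53, interval 24.8% to 52.1%).

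Neither phase share passed the test between mutant and WT tumors. The percent in S averaged 19.1% ± 9.36 in mutant tumors (SD, n = 9) and 18.8% ± 4.44 in WT tumors (n = 7), with an interval of the difference of -7.70 to 8.71 (exact p = 0.932). The percent in G2M averaged 13.5% ± 11.9 in mutant tumors and 12.3% ± 7.78 in WT tumors, with an interval of -9.56 to 12.5 (exact p = 0.844). Thinning cells to a common depth needs gene counts, which were not used here, so the calls stand beside unequal depths.

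Beside the other lymphocytes of the same tumor, B cells had the highest share of G1 calls in 16 of 16 tumors. This and the next values are descriptions without a test, since classes were named from the same expression. The G1 share of B cells had a median of 65.7% over tumors, against 51.0% in T cells, 47.5% in NK cells, 47.2% in CD4 T cells and 26.7% in CD8 T cells. The mean S score of B cells was below that of each other class in 16 of 16 tumors, and the mean G2M score in 15 of 16. Among cells with at least 1000 genes, 14 tumors kept at least 5 B cells, and in all 14 the B cells had a higher G1 share than each of the others (median 78.4%, against 55.4% in CD4 T cells, the next highest). Among cells with under 1000 genes this was so in 8 to 9 of 12 tumors, depending on the other class.

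**Figure D5:**
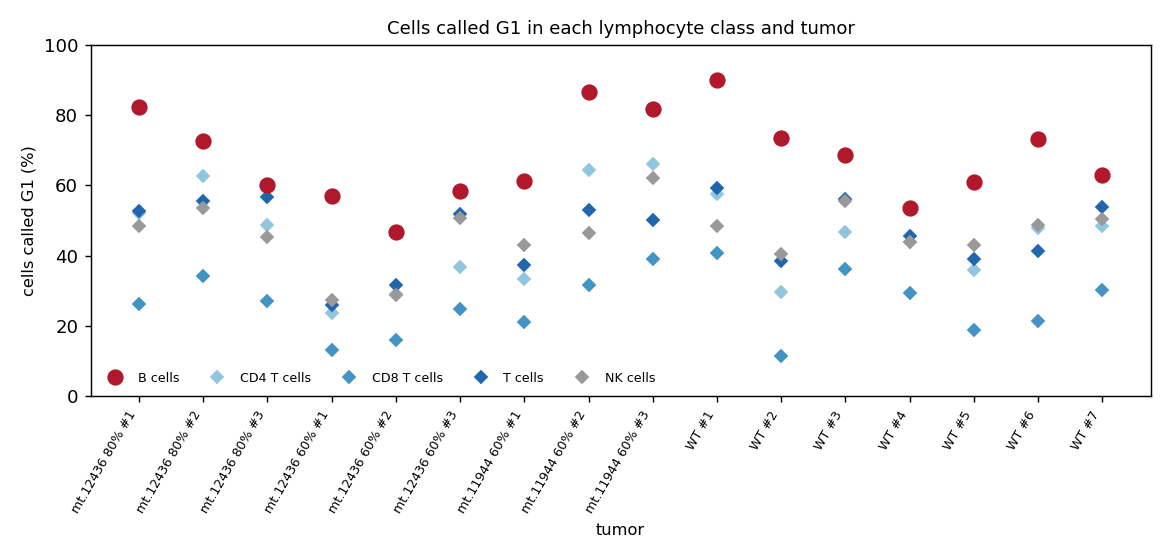
Percent of cells called G1 (vertical axis) in each of the 5 lymphocyte classes (colours) for each of 16 tumors (horizontal axis), where some points overlap. The B cells, at 46.7% to 90.0%, lie above the other classes in every tumor, and CD8 T cells, at 11.5% to 40.8%, lie lowest in every tumor.

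Over cells of all depths, B cells also stood apart from T and NK cells in their ribosomal transcripts. The ribosomal percent of B cells was below that of T cells and of NK cells in 16 of 16 tumors (medians over tumors of 16.8% in B cells, against 23.1% in T cells and 22.4% in NK cells). It was below that of CD8 T cells in 15 of 16, and above that of CD4 T cells (15.4%) in 13 of 16. With at least 1000 genes B cells lay below CD8 T, T and NK cells in 14 of 14 tumors. With under 1000 genes they lay below T cells in 9 of 12 tumors, NK cells in 7 and CD8 T cells in 6. The medians over tumors were then 17.9% in B cells and 16.7% in NK cells. The mitochondrial percent of B cells was above that of CD8 T cells in 15 tumors and above that of CD4 T and NK cells in 14 each, but above that of T cells in only 11, with medians over tumors of 1.02% in B cells and 1.01% in T cells. Among cells with at least 1000 genes it was below that of T cells in 8 of 14 tumors. They held more UMIs than CD4 T cells in 15 tumors (medians over tumors of 1918 in B cells and 1432.5 in CD4 T cells) and fewer than CD8 T cells in 12.

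From tumor to tumor, the B cell share was related to the shares of several classes over all 16 tumors, and for 5 of the 6 classes that passed the sign was the opposite in the second batch. The B cell share of all cells was related to that of cancer cells with r = -0.711 (permutation p = 0.00273, adjusted over 14 classes 0.0144, Spearman rho = -0.674, p = 0.00497), of NK cells with r = 0.690 (p = 0.00358, adjusted 0.0144, rho = 0.782, p = 0.00045) and of CD4 T cells with r = 0.681 (p = 0.00474, adjusted 0.0144, rho = 0.638, p = 0.00866). T cells (r = 0.680) and dendritic cells (r = 0.658) had an adjusted p of 0.0144 as well, and neutrophils (r = 0.596) one of 0.0331, while CD8 T cells (r = 0.517, adjusted p = 0.0790) did not pass. Dendritic cells and neutrophils were added to the named classes after seeing the data. Without the 2 tumors farthest from the median of the other class, r was -0.626 for cancer cells, 0.650 for NK cells, 0.777 for CD4 T cells, 0.730 for T cells and 0.661 for dendritic cells. For neutrophils it was 0.268, so that the size of r depended on those 2 tumors. Their Spearman rho over all 16 tumors was 0.565 (permutation p = 0.0240, adjusted over 14 classes 0.0561). Within batches r for neutrophils was -0.218 in the first and 0.606 in the second, and neither passed.

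Within the second batch the relations with cancer, NK and CD4 T cells had the opposite sign (r = 0.356 for cancer cells, -0.699 for NK cells and -0.641 for CD4 T cells over 6 tumors), and within the first batch they kept the sign (r = -0.579, 0.628 and 0.511). None of the 3 passed within either batch (exact p of 0.104 to 0.476). Shares of 1 tumor add up to a whole, and the tumors of the second batch were high in B cells as a group. These 3 relations thus did not hold within the second batch.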

How the data were processed

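The deposited table has a line for each cell of 16 tumors. The authors aligned reads to GRCm39 with Cell Ranger 7.0.1. They kept cells of at least 500 genes, at most 37000 UMIs and at most 5% mitochondrial transcripts. Libraries were joined with Harmony 0.1.0 in Seurat 4.2.0. Classes were named with clustifyr 1.8.0 and then adjusted by hand against known marker genes, among them CD79a for B cells. Ploidy was called with CopyKAT 1.1.0. UMI and gene counts per cell are as deposited. All deposited cells were used; the methods of the study also name a smaller matrix for normalization, and which cells it lacks is not stated. Mitochondrial, ribosomal and dissociation percent, the doublet score (a fraction from 0 to 1) and the S, G2M and epithelial scores were computed by the authors; the genes behind the ribosomal and dissociation percent are not given in the sources used here.

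Tumors were the replicates. Shares, and medians of measures over cells (means for the 3 gene scores), were computed per tumor and compared, measures in the 12 classes that reached 5 cells throughout, by the difference of means with an exact two-sided permutation test (Python 3.11.15, numpy 2.4.6, scipy 1.17.1, pandas 2.3.3), with Benjamini-Hochberg adjustment over 15 classes, 5 lymphocyte classes or 132 values, a threshold of 0.05, and intervals by inverting the test. Within-batch differences were weighted by group sizes. Relations used 100000 permutations, or all orders within a batch. edgeR 4.0.16 in R 4.3.3 was an alternative; both tests were tested on simulated data. Classes named were the 5 lymphocyte classes and the 3 with the largest r. The cells and lists were chosen with earlier results of these data known. Other classes and all gene expression were not analysed here.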

Additional observations from a re-analysis of the deposited data

Results flagged for a closer look

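In groups of 4 to 10 tumors a tumor was singled out where its gap to the nearest other tumor, as a share of the range of the group, passed Dixon's 95% value, which chance alone does in about 1 group in 20. Of 30 groups looked at (10 B cell values in the mutant, 60% and WT tumors), 7 were singled out. B cells of mt.11944 60% tumor 1 had a median of 5864 UMIs, where the next of the 9 mutant and of the 6 tumors with 60% mutant genomes had 3004, and a median of 2341.5 genes, where the next mutant tumor had 1612. The CD4 T, CD8 T, T and NK cells of that tumor had the highest median UMIs of any tumor too. Its B cells had a median doublet score of 0.0649, against 0.00525 in the next of the 9 and of the 6. B cells of WT tumor 2 had a median mitochondrial percent of 1.96, against 1.19 in the next of 7 WT tumors. B cells of mt.12436 60% tumor 2 were called G2M in 40%, against 20% in the next of 9 mutant tumors.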

How the results depend on the processing

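The lower B cell share of lymphocytes passed the test, for mutant against WT and for 60% against WT, within batches, with medians, with log2 ratios, with edgeR, without NK cells, with at least 600 genes and without cells of high doublet score, and with any 1 tumor left out (-3.87 to -2.88 and -4.21 to -3.22 percentage points). With at least 1000 genes it no longer passed (-1.55 and -1.79 points), nor for 60% tumors with under 1000 genes (-8.00 points). The numbers of the tumors did not pair them: of 18 same-numbered pairs of tumors, 5 had deviations that correlated over 0.1. A replicate block over numbers 1 to 3 used 3 of the 7 WT tumors, all of the first batch, and gave -2.88 points for mutant (exact p = 0.0625) and -3.22 points for 60% tumors (exact p = 0.037), which did not pass after adjustment; the same tumors without the block gave the same differences and did not pass either. For the share of all cells the block and those tumors without it turned the sign, to 0.0474 points for mutant and 0.108 points for 60% tumors against WT, and so did cells with at least 1000 genes for 60% tumors (0.0504 points). Leaving out 1 tumor kept the sign of the other share differences except among lymphocytes. There it turned for 80% against 60% tumors (-0.256 to 2.69 points). It also turned there for the effect of mt.12436 60% minus that of mt.11944 60% (-2.16 to 0.419 points). At 1000 genes mt.12436 60% minus mt.11944 60% among lymphocytes became -0.323 points.

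None of the measures that did not pass passed under another setting, but signs turned. With at least 1000 genes mutant minus WT became -102 UMIs, -28.7 genes, 0.0202 points of mitochondrial percent and -0.449 points of G2M calls, and 80% minus WT became -1.81 points of ribosomal percent, which was also -0.277 with means over cells and -0.101 with the replicate block. With 1 tumor left out, mutant minus WT ranged over -0.199 to 0.000637 points of mitochondrial percent, -1.99 to 1.89 of S calls and -2.16 to 2.84 of G2M calls, and 80% minus WT over -0.904 to 1.02 points of ribosomal percent.

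Within the first batch r with the B cell share was 0.511 for CD4 T, -0.579 for cancer, 0.628 for NK and 0.499 for T cells, and within the second -0.641, 0.356, -0.699 and -0.677, and -0.0989 for CD8 T cells, and none passed. The causes of these changes were not tested. B cells numbered 5 to 78 in a tumor, so a difference that did not pass may still exist. No within-batch value exists for the direct comparisons of 80% against 60% or mt.12436 60% against mt.11944 60%.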
